A study of Mus musculus with 6 samples.

Results

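Cytotoxic lymphocytes kill target cells with granules that carry perforin and granzymes, and the T helper 1 (Th1) programme leads T cells to make interferon gamma. The 10 genes described here are 5 granule genes (Gzma, Gzmb, Gzmk, Prf1 and Nkg7), the cytokine gene Ifng, the transcription factor genes Tbx21 and Eomes, and the receptor genes Klrd1 and Klrg1. They were measured in the kidneys of lupus-prone and control mice. The members are all probes that are not controls and that the array annotation names for these genes. They are 13 of 56605 probes, and 10 of 36870 gene names on the array. Of the 13 probes, 12 had a signal well above background in 3 or more of the 6 mice, which was the condition for a test.

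The study compared the whole kidney of 3 female MRL/MpJ mice (MRL) with that of 3 female MRL/MpJ-Fas lpr/lpr mice (LPR), all at 6 months of age and with no treatment given in the labels. The strains share the MRL background, and the LPR mice carry 2 mutated copies of Fas, which encodes a death receptor that ends the life of activated lymphocytes. Each mouse gave 1 single-colour Agilent array with Cy3-labelled RNA, and the 6 arrays lay on 1 slide. Control mice of this strain are not free of autoimmunity, and whole kidney mixes renal cells with any infiltrating cells.

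Granzymes are serine proteases that enter a target cell through pores made by perforin, and Nkg7 encodes a membrane protein of the granules. T-bet, the product of Tbx21, and its relative eomesodermin, the product of Eomes, bind T-box motifs and drive Ifng and granule genes in CD8 T cells, natural killer (NK) cells and Th1 cells. Klrd1 encodes CD94, the partner chain of the NKG2 receptors, and Klrg1 encodes an inhibitory receptor of effector T and NK cells. T cells are known to gather in the kidney of lupus-prone mice, and mice that lack working Fas build up T cells with neither CD4 nor CD8.

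For Gzmk, Eomes and Klrg1 the array holds 2 probes each, and their sequences show that the probes of 1 gene do not measure the same stretch of transcript. They are given from 5′ to 3′ on the transcript's strand, whole at 60 bases for the Gzmk and Eomes probes that had the lower signal of their gene and by the first 30 bases for the others. No letters are marked.
Gzmk A_51_P166556: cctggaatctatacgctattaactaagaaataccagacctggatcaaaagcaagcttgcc
Gzmk A_55_P2042331: cgttcatcctaaataaaatgtggacgtctg
Eomes A_66_P137763: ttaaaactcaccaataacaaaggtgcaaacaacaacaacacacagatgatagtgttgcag
Eomes A_55_P2150717: gctatgaagaacgagtgcccggtgctatta
Klrg1 A_51_P256983: tgccgcattcagtaacacgttccatagaca
Klrg1 A_55_P1988844: cactgtgcctcataaatgtgtacaatcact
The probe Gzmk A_55_P2042331 holds the letters AATAAA, the signal before a polyadenylation site. The 60 bases of Eomes A_66_P137763 are spread over 662 bases of the genome, so that the probe joins separate pieces of the gene. All probe coordinates are those of the array annotation on build mm9. The files do not say which probes lie in coding and which in untranslated sequence.

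RefSeq promoters (build GRCm38.p6) were at hand for 8 of the 10 genes, the others being Klrd1 and Klrg1. In a window of 300 bases around each start site, 4 motifs were searched on both strands, which overlap with one another at no place in these promoters. The T-box motif GGTGTGA was in the promoters of Nkg7 and Gzmk, 2 of 8 members, and in 4.0% of all 32851 promoters. The Runx motif TGTGGT was in those of Nkg7, Prf1, Gzma and Gzmb, 4 of 8, and in 16.8% of all. The interferon-gamma-activated motif TTCNNNGAA was in those of Nkg7, Ifng and Gzmb, 3 of 8, and in 8.3% of all, and the AP-1 motif TGANTCA was in that of Gzmb, 1 of 8, and in 7.8% of all. Tbx21 and Eomes held none of the 4. The 250 bases before the start site are printed for the 3 granule genes with the most matches or the largest change, with the matches in capitals. The match of TTCNNNGAA in Gzmb lies beyond the printed bases.
Nkg7, chr7:43436888-43437137, plus strand: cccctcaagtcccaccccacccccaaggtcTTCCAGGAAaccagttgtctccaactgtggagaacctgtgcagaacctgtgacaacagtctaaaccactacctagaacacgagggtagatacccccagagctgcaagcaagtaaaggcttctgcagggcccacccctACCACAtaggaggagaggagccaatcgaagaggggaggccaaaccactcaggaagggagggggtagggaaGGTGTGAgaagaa
Gzmk, chr13:113180966-113181215, minus strand: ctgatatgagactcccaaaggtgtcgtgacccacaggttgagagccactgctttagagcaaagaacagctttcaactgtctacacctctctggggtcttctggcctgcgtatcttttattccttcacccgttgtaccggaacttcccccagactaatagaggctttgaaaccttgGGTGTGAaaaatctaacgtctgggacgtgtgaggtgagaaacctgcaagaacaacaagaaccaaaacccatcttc
Gzmb, chr14:56262335-56262584, minus strand: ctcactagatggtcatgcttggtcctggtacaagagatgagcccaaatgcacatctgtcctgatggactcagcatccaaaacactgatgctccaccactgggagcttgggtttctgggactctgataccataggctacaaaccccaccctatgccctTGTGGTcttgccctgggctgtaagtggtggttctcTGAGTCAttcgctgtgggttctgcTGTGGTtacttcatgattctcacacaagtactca
The T-box match begins 13 bases before the start site in Nkg7 and 75 bases before it in Gzmk. A match is a description of letters and not a site of binding.

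All 10 genes were higher in LPR kidneys. Of the 12 tested probes, 12 passed limma at an adjusted p under 0.05 and 0 were lower, against 6.53% of all 39924 tested probes that were higher. In each of the 12 probes the 3 LPR mice lay above the 3 MRL mice, which held for 11.0% of all tested probes. However, 6 of the 12 had no MRL array above background and met the condition for a test through the LPR mice alone. Their place above the controls was therefore largely set by that condition. With only probes above background in all 6 mice tested, 5 member probes remained, all 5 were higher and 1 was at least 10-fold higher. Over all probes 2158 were higher under this filter, and their share was not computed. By gene, with the tested probe of highest signal standing for each gene, 10 of 10 were higher, against 7.12% of all genes. At least 10-fold in the fit were 6 of the 12 probes, against 1.09% of all probes. Among these 6, the probes of Gzmb, Ifng and Gzmk had no MRL array above background. Their fitted folds rest on control signals that were not measured, and the bound of Gzmk A_51_P166556 was 7.49-fold. The count therefore describes the fit alone. The median log2 change of the 12 probes was 3.06, with a range of 0.51 to 5.51, and that of all tested probes was -0.14. In whole kidney, more cells of a type and more RNA per cell cannot be told apart. All values of a mouse are log2 intensities relative to the 75th percentile of its array, so that 0 is the level below which 3 in 4 spots lie. A change is LPR minus MRL.

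**Figure D1:**
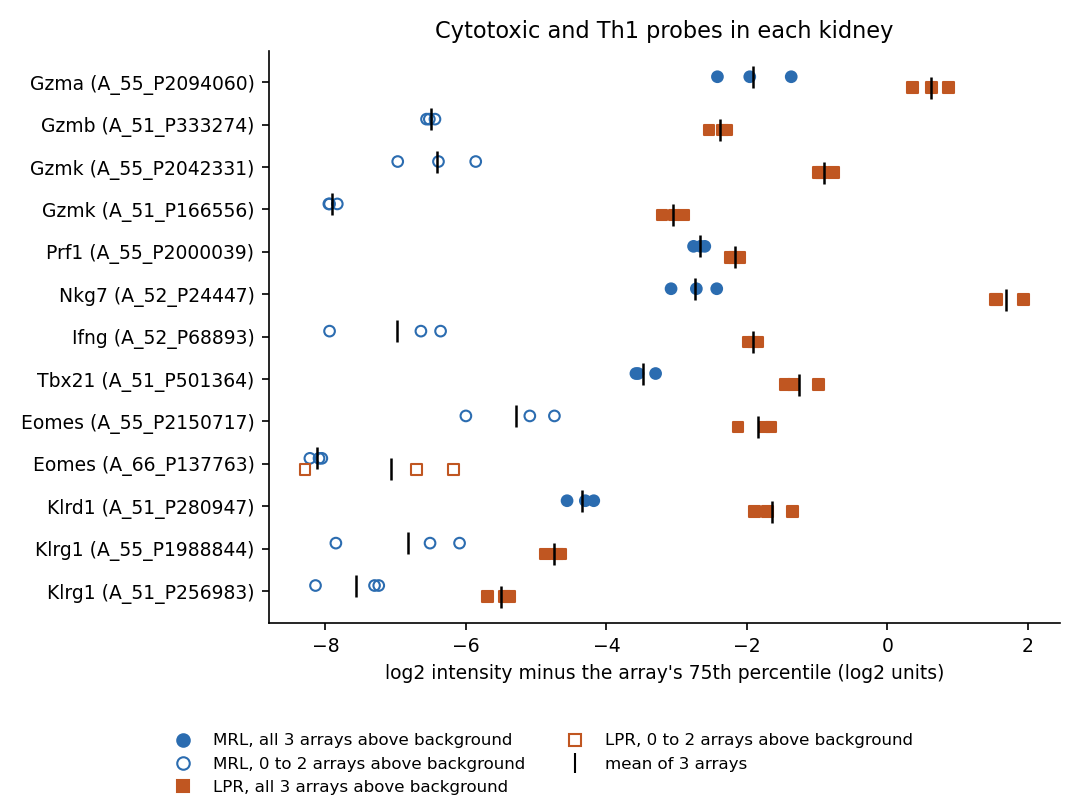
Log2 intensity of each member probe relative to the 75th percentile of the array, for 3 MRL mice (circles) and 3 LPR mice (squares), with the group mean as a bar and open symbols where fewer than 3 arrays of the group were well above background. In the 12 tested probes every LPR mouse lies to the right of every MRL mouse, and 6 of them have no MRL array above background.

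Among the granzymes, Gzma was above background in all 6 mice, while Gzmb and Gzmk were above background in the LPR mice alone. Gzma (NM_010370, chromosome 13, 113884035 to 113884094), a tryptase that does not need caspases to kill, was -2.42, -1.37 and -1.96 in MRL mice 1 to 3 and 0.87, 0.36 and 0.63 in LPR mice 1 to 3. MRL 2 was the highest control, and it was still 1.73 below the lowest LPR mouse on the log2 scale. The group means were -1.91 ± 0.53 (SD, n = 3) and 0.62 ± 0.25 (SD, n = 3), a log2 change of 2.54 (standard error, SE, 0.27, limma adjusted p = 0.00147) or 5.80-fold.

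Gzmb (NM_013542, chromosome 14, 56877916 to 56877975) encodes the granzyme that cleaves caspases. It was -2.29, -2.54 and -2.35 in the LPR mice, a narrow band. The MRL signals were -6.44, -6.52 and -6.56, and none was above background. The rise was at least 11.8-fold (fitted log2 change 4.11, SE 0.11, limma adjusted p = 7.47e-06).

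Gzmk encodes a tryptase-like granzyme that is known from effector memory T cells. Its probe A_55_P2042331 (chromosome 13, 113961816 to 113961875) gave -0.98, -0.77 and -0.94 in the LPR mice and -6.97, -5.86 and -6.39 in the MRL mice. No MRL array was above background, and the control signals spread over 1.10 where the LPR signals spread over 0.21. The rise was at least 32.1-fold (fitted log2 change 5.51, SE 0.26, limma adjusted p = 3.99e-05). The second probe, A_51_P166556 (chromosome 13, 113962100 to 113962159), was at -3.21, -3.04 and -2.90 in the LPR mice and between -7.95 and -7.83 in the MRL mice. It too was above background in the 3 LPR mice and in none of the controls. Its rise was at least 7.49-fold (limma adjusted p = 6.72e-06), so that both probes were higher and the bound depended on the probe. Gzma and Gzmk lie next to each other on chromosome 13, with 1700084D21Rik between them.

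Perforin, the pore-forming protein of the granules, showed the smallest fitted change of the 10 genes. The bound of the Klrg1 probe A_51_P256983, at 1.36-fold, was lower than the 1.42-fold of Prf1, so the order of these 2 genes is not settled. Prf1 (NM_011073, chromosome 10, 60766941 to 60767000) was -2.76, -2.66 and -2.60 in the MRL mice and -2.23, -2.18 and -2.10 in the LPR mice, above background in all 6. The groups did not overlap, and each spread over 0.16 or less. The log2 change was 0.51 (SE 0.10, limma adjusted p = 0.0222), a 1.42-fold rise, and 8.42% of all tested probes had a larger change. The call was lost without MRL 1, MRL 2, MRL 3 or LPR 3, with log2 changes of 0.46, 0.52, 0.54 and 0.47.

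Nkg7 (NM_024253, chromosome 7, 50693482 to 50693541) had the largest rise among the 5 member probes above background in all 6 mice. It was -3.08, -2.43 and -2.72 in the MRL mice and 1.55, 1.94 and 1.54 in the LPR mice. The controls lay well below the 75th percentile of their arrays and the LPR mice above it. With means of -2.74 ± 0.33 (SD, n = 3) and 1.68 ± 0.23 (SD, n = 3), the log2 change was 4.42 (SE 0.20, limma adjusted p = 3.19e-05), or 21.4-fold.

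Ifng encodes interferon gamma, the main cytokine of Th1 and NK cells. Its probe (NM_008337, chromosome 10, 117882841 to 117882900) gave -1.85, -1.98 and -1.91 in the LPR mice, the narrowest LPR spread of all members, at 0.12. The MRL signals of -7.94, -6.64 and -6.36 were not above background, and MRL 1 was the lowest of them. Interferon gamma transcript was at least 16.4-fold higher in LPR kidneys (fitted log2 change 5.07, SE 0.38, limma adjusted p = 0.000277).

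Both T-box factors were higher. Tbx21 (NM_019507, chromosome 11, 96959417 to 96959476) was above background in all mice, at -3.58, -3.30 and -3.55 in the MRL mice and -1.46, -0.98 and -1.34 in the LPR mice. The highest control was 1.84 below the lowest LPR mouse. From -3.48 ± 0.15 (SD, n = 3) to -1.26 ± 0.25 (SD, n = 3), the log2 change was 2.22 (SE 0.16, limma adjusted p = 0.00022), or 4.65-fold.

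Eomes was measured by the probe A_55_P2150717 (NM_010136, chromosome 9, 118394425 to 118394484) at -6.00, -5.09 and -4.74 in the MRL mice and -1.66, -2.13 and -1.75 in the LPR mice. Of the controls 2 of 3 were above background, and MRL 1 was the lowest. The log2 change was 3.43 (SE 0.32, limma adjusted p = 0.000735), a 10.8-fold rise in the fit. The other Eomes probe, A_66_P137763 (NM_001164789, chromosome 9, 118390460 to 118391121), was above background on no array and was not tested. Its signals were -8.09, -8.22 and -8.05 in the MRL mice and -6.70, -6.18 and -8.29 in the LPR mice, and the groups overlapped because LPR 3 was the lowest mouse. No call rests on this probe.

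Of the receptors, Klrd1 was measured in every mouse and Klrg1 above background in the LPR mice alone. Klrd1 (NM_010654, chromosome 6, 129548391 to 129548450) was -4.56, -4.18 and -4.30 in the MRL mice and -1.71, -1.89 and -1.35 in the LPR mice. LPR 3 was the highest, and all LPR mice stood clear of the controls. The log2 change was 2.70 (SE 0.17, limma adjusted p = 0.000131), or 6.49-fold. In RefSeq, Klrd1 lies between Klre1 and Klrk1 in the cluster of killer lectin genes.

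Klrg1 had the lowest bounds of the members below background in controls. Its probe A_55_P1988844 (NM_016970, chromosome 6, 122220629 to 122220688) gave -4.87, -4.65 and -4.70 in the LPR mice and -7.85, -6.51 and -6.09 in the MRL mice. The rise was at least 2.32-fold (fitted log2 change 2.08, SE 0.42, limma adjusted p = 0.0222). The MRL signals, all at background, spread over 1.76, the widest of the members. The second probe, A_51_P256983 (chromosome 6, 122220970 to 122221029), was -5.38, -5.69 and -5.45 in the LPR mice and -8.14, -7.24 and -7.30 in the MRL mice, a rise of at least 1.36-fold (limma adjusted p = 0.00259). The call of the first probe was lost without LPR 1, LPR 2 or LPR 3 (log2 changes 2.14, 2.03 and 2.05) and under 4 of the other alternatives, among them the methods' t-test. With normexp background correction the fitted changes were 0.24 and 0.20, and neither probe passed.

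**Figure D2:**
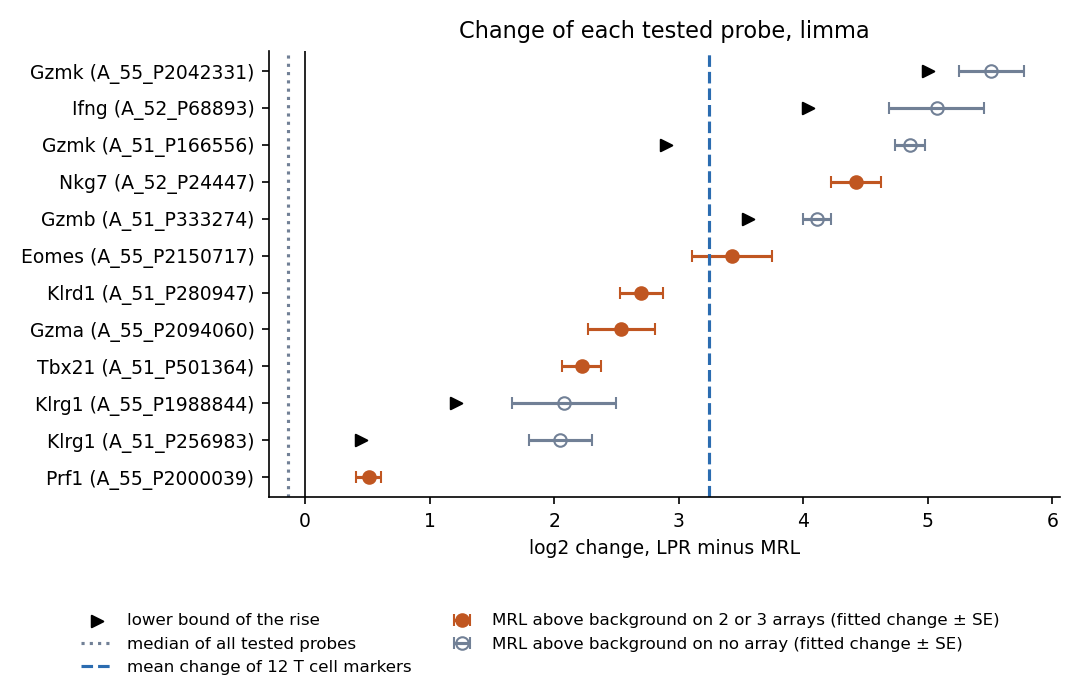
Log2 change of the 12 tested member probes, LPR minus MRL, from limma with the standard error as a bar, and black triangles for the lower bound where no MRL array was above background. The fitted changes run from 0.51 for Prf1 to 5.51 for Gzmk, all to the right of the median of all tested probes at -0.14 (dotted). By the fit 6 of them lie beyond the T cell markers' mean change of 3.24 (dashed). Among these, Gzmk, Ifng and Gzmb had no MRL array above background, and the bound of Gzmk A_51_P166556, at 2.90, falls short of that line.

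Ordered by fitted change, Gzmk came first, followed by Ifng, the second Gzmk probe, Nkg7, Gzmb, Eomes, Klrd1, Gzma, Tbx21, both Klrg1 probes and Prf1. Gzmk was 89 by rank and Prf1 3363 by rank among 39924 tested probes. Klrd1 (2.70, SE 0.17), Gzma (2.54, SE 0.27) and Tbx21 (2.22, SE 0.16) followed each other within their errors, and so did Tbx21 and the Klrg1 probes. Among the 5 probes above background in all 6 mice, Prf1 lay below its nearest neighbour, Tbx21 at 2.22, by more than their errors together. The fitted values of the 6 probes with controls at background depend on signals that were not measured, so their order is not settled.

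The LPR mice resembled each other in these genes. Over the 12 tested probes the 3 LPR mice spread over 0.12 to 0.53 on the log2 scale, and no mouse was highest throughout. LPR 1 was the highest in 5 probes, LPR 2 in 4 and LPR 3 in 3. LPR 1 and LPR 2 were the lowest in 5 and 6 probes and LPR 3 in 1. On the slide LPR 1 shared its first position index with the 3 MRL mice, and LPR 2 and LPR 3 had another. The fit with this position compares LPR 1 alone with the controls, takes the spread from the other mice and assumes that LPR 1 varies like them, so it is weak as a check. In it the log2 change was 0.45 for Prf1 and 1.94 for the Klrg1 probe A_55_P1988844, and neither of these probes kept its call.

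Further genes of the granule pathway were followed from a list of 19. Of these 14 were tested, 8 were higher, 0 were lower and 6 did not pass, where 7.12% of all genes were higher and 5.47% were lower. The median log2 change was 0.75, against -0.12 over all genes, with a range of -0.21 to 3.27. Among genes measured in all mice the largest rises were those of Unc13d, which primes granules for release (1.83, SE 0.11, limma adjusted p = 9.42e-05, with another probe at 0.33 that did not pass), Stx11, which serves granule fusion (1.57), and Ctsc, which activates the granzymes (1.54). Fasl, the ligand of Fas and named here after its value was seen, changed by 3.27 (log2), and 1 of 3 controls was above background. The granule transport genes Rab27a (-0.08), Lyst (0.09), Ap3b1 (-0.13) and Stxbp2 (-0.21), also named after their values were seen, did not pass. The granzyme genes Gzmc, Gzmd, Gzme, Gzmf and Gzmg, which resemble each other in sequence, were not tested. None was above background in MRL mice, and Gzme was in 2 LPR mice. Thus Gzma, Gzmb and Gzmk were measured in all LPR kidneys, together with Gzmm (0.67), named after its value was seen, which passed by the probe of higher signal and not by the other.

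Of 5 genes of the serpin family of protease inhibitors, 4 were tested and 2 were higher, with a median of 0.62. Whether each of them, Serpina3g included, inhibits a granzyme was not tested. Serpina3g rose by 22.9-fold (log2 change 4.51, SE 0.21, limma adjusted p = 3.97e-05). Serpinb9, the inhibitor of granzyme B, rose by 1.6-fold (0.68, adjusted p = 0.00545), which was a smaller change than the bound of Gzmb itself. Serpinb6a (0.19) and Serpinb6b (0.55, limma adjusted p = 0.0518) did not pass, and Serpinb9b was above background on no array.

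The list of killer lectin and NK receptors, with Klrd1 and Klrg1 left out, holds 30 genes, of which 29 had a probe and 17 were tested. Of these 12 were higher, 1 was lower and 4 did not pass. The median change was 2.37, and 1.45 with the 5 genes whose controls were at background set to their bounds. The activating adaptor Tyrobp (2.83), Klra2 (3.1) and Klrk1 (2.55, SE 0.10, limma adjusted p = 2.09e-05), which encodes NKG2D, had the largest rises among genes measured in all mice. Cd244 was lower by its probe of highest signal (-0.42, adjusted p = 0.046), while of its other probes 1 did not pass and 1 was higher. The genes that did not pass were Klrb1f, Klra1 (-0.68), Ncr1 and Cd96. For Cd96 this was the probe of highest signal (1.26), and its other probes were at least 5.20-fold and 2.18-fold higher. Of the NKG2 partners of Klrd1, named here after their values were seen, Klrc1 and Klrc2 were above background on no array and Klrc3 was at least 1.23-fold higher. The Klra genes are close copies of each other, so their values are uncertain.

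Around Ifng, Tbx21 and Eomes, 13 of 23 tested genes of the Th1 pathway (25 listed) were higher, 0 were lower and 10 did not pass, with a median of 1.11. Il2rb (3.67) and Cxcr3 (3.59), receptors that Th1 and effector cells carry, were among the largest rises. Of the interleukin-12 path that induces Tbx21 and Ifng, named after their values were seen, Il12rb1 (2.64) and Stat4 (2.17) were higher, Il12rb2 was not (-0.74, SE 0.43, limma adjusted p = 0.283), and Runx3, a partner of T-bet, rose by 2.50 by 1 probe and did not pass by another (0.55). The ligand gene Il12b did not pass (0.19), and Il12a was above background in 2 LPR mice and was not tested.

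Downstream of interferon gamma, 16 of 17 tested genes were higher and 0 were lower, with a median of 2.50. Cxcl9 rose by 62.1-fold (log2 change 5.96, SE 0.25, limma adjusted p = 2.53e-05), Igtp by 16.7-fold and Gbp2 by 13.3-fold. The exception was Cxcl11 (-0.17, limma adjusted p = 0.345). Its probe had a mean level of 8.06 in MRL mice, against -4.52 for Cxcl9, and whether it reports Cxcl11 transcript was not tested. Many of these genes also answer to type I interferon.

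For other helper T cell programmes the counts were different in size, and that difference was not tested. Of 13 tested genes (16 listed), 3 were higher, 1 was lower and 9 did not pass, with a median of -0.20. Ccr6 rose by 2.50 and Foxp3 by 1.71, and Il10, named after its value was seen, was at least 2.30-fold higher. Among those that did not pass and named after their values were seen, Gata3, the regulator of Th2 cells, had -0.25 and Il4 had 1.17. Il5, Il17a and Ccr4 were above background on no array. Gata3 and Il17f (-0.85, adjusted p = 0.0632) were measured in all 6 kidneys. In MRL mice the mean levels of Gata3 (2.59), Rora (3.45) and Maf (4.15) lay far above the T cell markers' mean of -2.57 to -2.28. Which cells gave these signals was not tested. The changes of such genes, and the list's median, therefore cannot be read as changes in helper T cells.

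**Figure D3:**
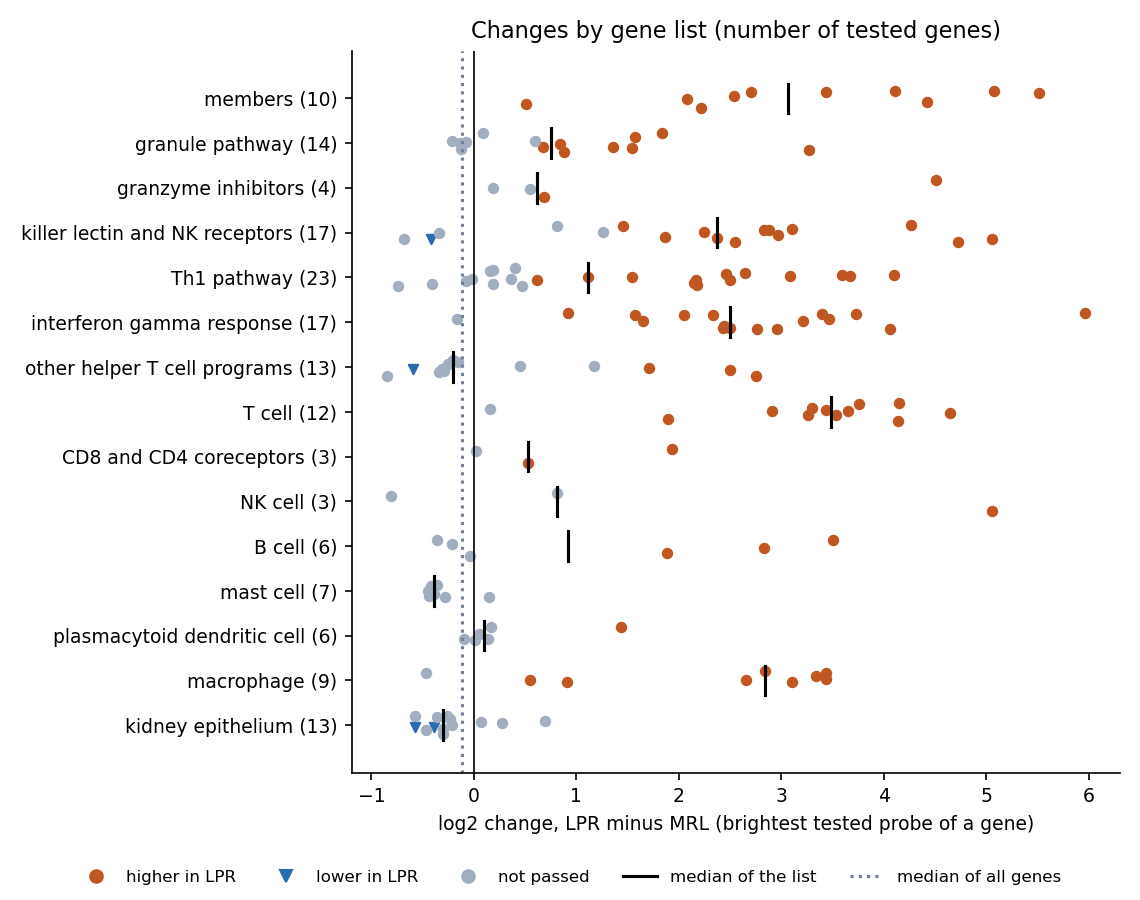
Log2 change, LPR minus MRL, of every tested gene of the member, pathway and cell type lists, with the number of tested genes in parentheses, coloured by its call in limma, a black bar at the list's median and a dotted line at the median of all genes (-0.12). The members centre on 3.06, the T cell markers on 3.48 and the interferon gamma response on 2.50, while the other helper programmes centre on -0.20.

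The rises went along with markers of T cells. Of 12 T cell markers 11 were higher, led by Cd2 (4.64), Cd3g (4.15) and Cd3d (4.14), and Cd247 did not pass by its probe of highest signal (0.16), while 2 other Cd247 probes were higher (1.13 and 0.99). Their summed level, as intensity over the 75th percentile of the array, was 4.24 to 5.14 in MRL mice and 23.4 to 26.9 in LPR mice. That of the 10 members was 0.622 to 0.967 and 6.80 to 7.41. In MRL mice the largest part of the T cell sum came from the Cd247 probe that did not pass, at log2 levels of 0.89 to 1.13. The T cell sums therefore do not give the fold rise of the other markers. The part of T cell number in the rises of the members was not tested.

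Among the coreceptors, both Cd8a probes did not pass (0.02, adjusted p = 0.912, and 0.10, limma adjusted p = 0.632). Cd8b1 rose by 1.93 (SE 0.19, adjusted p = 0.000951). For Cd4 the probe of highest signal rose by 0.53, another was at least 1.57-fold higher and the third did not pass (0.25). Cd8a was above background in all 6 mice by both probes.

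Most markers of NK cells were at or near background. Of 8 markers 3 were tested, and Klra8 was at least 11.2-fold higher, while Ncr1 (0.81, limma adjusted p = 0.10) and Itga2 (-0.81) did not pass. Klre1, Klra4 and Cd160 were above background on no array, Klrb1c in 2 LPR mice and Klri2 in 1. The summed level of the 3 tested genes was 0.050 to 0.055 in MRL mice and 0.178 to 0.307 in LPR mice. In LPR mice it mostly follows Klra8 alone, at log2 levels of -2.83 to -2.01. Klra8 is also among the Klra genes whose values are uncertain. The lists of NK markers and of killer receptors share genes.

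Other cell types moved too. Macrophage markers were higher in 8 of 9 tested genes, with C1qa (3.43), C1qc (3.43) and C1qb (3.34) first and Mertk not passing (-0.47), and their summed level went from 18.5 to 22.5 in MRL mice to 57.5 to 63.9 in LPR mice. In MRL mice Csf1r (mean log2 level 3.77, change 0.55) makes up most of that sum. B cell markers were higher in 3 of 6, among them Cd79b (2.83) and Cd79a (1.88), while Pax5, Cr2 and Fcer2a did not pass and Blk was not tested. Their summed level was 0.832 to 1.01 and 3.68 to 4.85. None of 7 tested mast cell markers passed, with summed levels of 6.02 to 21.3 and 4.14 to 29.9, which mostly follow Hdc alone (log2 levels of 2.20 to 4.31 in MRL mice and 1.61 to 4.85 in LPR mice). Of the 6 markers of plasmacytoid dendritic cells Ly6d was higher (1.43), and Siglech, Ccr9, Tcf4, Pacsin1 and Klk1b27 did not pass, although another Pacsin1 probe was higher (0.79). Their summed levels were 104 to 123 and 104 to 113, of which Siglech alone, at log2 levels of 6.48 to 6.80, makes up most.

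The label kidney held, since all 13 markers of kidney epithelium were above background in every mouse. Of these Slc5a2 (-0.57, adjusted p = 0.027) and Lrp2 (-0.39, limma adjusted p = 0.0492) were lower by their probe of highest signal, with other probes of both that did not pass. The summed level of the 13 markers was 1009 to 1054 in MRL mice and 809 to 872 in LPR mice. Fas did not settle the strain label. Its probe A_55_P2091676 did not pass (-0.47, limma adjusted p = 0.234), A_52_P73385 was at least 1.47-fold higher, and the files do not say how these probes lie to the mutation.

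Set against the T cell markers of the same array, the members parted. The mean of the 12 marker genes was -2.57, -2.28 and -2.54 in the MRL mice and 0.67, 0.77 and 0.88 in the LPR mice, a change of 3.24. A member's change minus this mean was -2.73 (SE 0.10) for Prf1, -1.02 (SE 0.14) for Tbx21, -0.54 for Klrd1 and -0.70 for Gzma. The value of Prf1 rests on 1 probe, and which cells gave its signal in MRL mice (mean -2.67) was not tested. The difference from the markers' mean was -1.16 and -1.18 for the Klrg1 probes, whose controls were at background. Their fitted changes rest on control signals that were not measured, so these values give no direction here. Nkg7 went ahead of the markers' mean by 1.19 (SE 0.19). The 12 markers' own changes ran from 0.16 to 4.64, and the changes of all these members lay within that range. The SE covers the mice and not the spread among the markers. An exact two-sided permutation test over the 3 and 3 mice cannot go below 0.1, and gave 0.1 for each of these members apart from Gzma, at 0.2.

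For 4 other members the sign depended on the background correction. Ahead of the markers' mean by the deposited signals were Gzmk (2.27 and 1.62), Ifng (1.83), Gzmb (0.87) and Eomes (0.20). With normexp correction, which raises low signals, the values were -0.02 and -1.50 for Gzmk, -0.57 for Ifng, -1.02 for Gzmb and -1.0 for Eomes. Without MRL 1 the value of Eomes was -0.11. No direction is therefore given for these 4 genes relative to T cell genes. Of the other genes, Prf1, Tbx21, Klrd1 and Gzma stayed behind the markers' mean and Nkg7 ahead of it under normexp and without any 1 mouse.

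**Figure D4:**
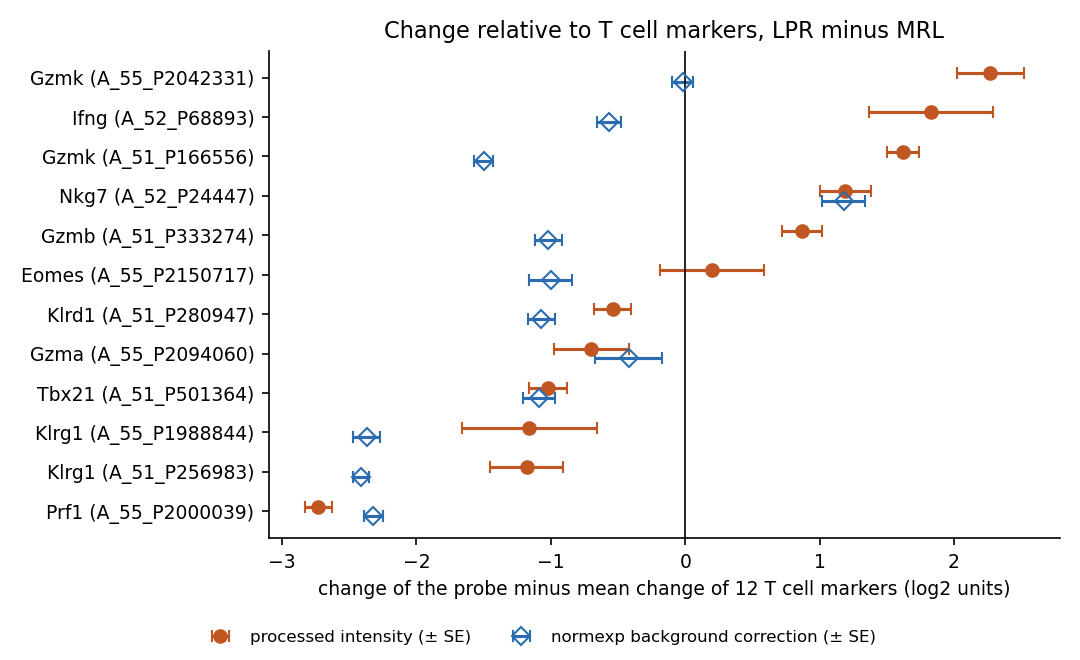
Change of each tested member probe minus the mean change of 12 T cell markers (log2 units, LPR minus MRL, bars are standard errors), with the deposited signals (filled circles) and with normexp background correction (open diamonds). Prf1 lies at -2.73 and -2.32 and Nkg7 near 1.19 by both, while Gzmk, Ifng, Gzmb and Eomes cross 0 or come to it.

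The genes whose values over the 6 arrays were most like the mean of the 10 members, by Pearson's r among 23312 genes above background on all arrays, were Tmsb10 (0.9996), Zap70 (0.9995), C1ra (0.9992), Ccl4 (0.9986) and Oas1a (0.9986). They encode thymosin beta 10, a T cell kinase, a complement protease, a chemokine of activated lymphocytes and macrophages, and an interferon-induced enzyme. The 6 points fall into 2 groups of 3, so r here describes the step between the strains and the spread within them together, and no test was made. The members' mean also takes in Gzmb, Gzmk, Ifng and Klrg1, whose MRL signals were at background. Part of its spread among MRL mice thus comes from signals that were not measured, and which genes rank first is not settled. Ccl4 changed by 4.71, close to Nkg7, and Zap70 by 3.43, the same value as Eomes, while Tmsb10 (1.42), C1ra (1.31) and Oas1a (1.68) had smaller fitted changes than every member apart from Prf1.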

How the data were processed

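The authors deposited, for each array, the spot intensity from Agilent Feature Extraction 12.0.3.1 with background subtracted and detrended, and a table of the ratio of that intensity to 1 constant per array. Depth is set by the number of arrays, and 69.6% to 73.5% of the 59305 spots that are not controls were well above background, with 73 to 90 outlier spots dropped and 0 saturated. The log2 intensity minus the 75th percentile of its array was averaged over the spots of a probe. Probes well above background on at least 3 of 6 arrays were compared with limma 3.58.1 (R 4.3.3) without covariates, with Benjamini-Hochberg adjustment over 39924 probes. The limma fit with its adjustment was tested on simulated data, and the scaling, the filter and the bounds were not. The tested probe of highest mean signal stands for a gene.

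Where no MRL array was above background, the LPR mean was set against MRL signals floored at the dimmest detected signal of the same array ("at least N-fold"). The members, lists, tests and alternatives were chosen with earlier results of these data known. Named were all members, Fas, from each list the 3 largest changes that passed among genes above background on all 6 arrays without overlap of the groups, the genes that passed against the list's direction, those not passed or not tested where at most 5, and the 5 genes most like the members. Some genes that this rule names are not reported here, and they are kept in the counts. A limma p sets the difference of the groups against the spread between these mice, which limma moderates with that of all tested probes. The labels name the RNeasy Mini Kit and the methods Trizol. No column of a comparison by the authors was used. Figures were drawn with matplotlib 3.10.9.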

Additional observations from a re-analysis of the deposited data

How the results depend on the processing

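No member's log2 change turned its sign under the alternatives, which were normexp background correction, other scalings, filters and probe summaries, an intensity trend, slide position, the methods' t-test and leaving out each mouse. For 8 of the 10 genes no call was lost. Prf1 lost its call under 6 of 19 alternatives (log2 change 0.29 to 0.54 over all) and the Klrg1 probe A_55_P1988844 under 7 of 18 (0.24 to 2.44), and the other Klrg1 probe with normexp (0.20). The cause was not tested, except that filters change which probes are tested. With a filter on all 6 arrays, 5 member probes, 5 member genes, 1 member probe at least 10-fold and 5 killer and NK receptor genes were higher. Over all probes 2158 were higher under that filter. With normexp 1 member probe was at least 10-fold higher. Granule pathway genes higher were 5 with slide position in the fit.

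All probes lower were 2462, and 4498 with normexp, 1093 with no filter, 463 with slide position, 1117 with the replicate block, 1386 with the methods' t-test and 760 to 2269 without 1 mouse. All probes higher were 2606, and 1458 with slide position and 1736 with the methods' t-test. Killer and NK receptor genes lower were 1, and 2 with normexp, the filter on all 6 arrays or the trend, 0 with the percentile over detected probes, no filter, slide position, the replicate block, the methods' t-test or the mean of probes, and 0 to 1 without 1 mouse. Th1 genes lower were 0, and 1 with normexp or the trend. Other helper genes lower were 1, and 0 with no filter, slide position, the replicate block or the methods' t-test, 2 with the filter on all 6 arrays and 0 to 1 without 1 mouse. Relative to the T cell markers, normexp gave -1.02 for Gzmb, -0.02 and -1.50 for the Gzmk probes, -0.57 for Ifng, -1.0 for Eomes, -2.32 for Prf1, -1.07 for Klrd1 and -2.37 and -2.41 for the Klrg1 probes, and without 1 mouse Eomes was at -0.11 (without MRL 1) to 0.50.

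Replicate numbers do not pair the mice, since deviations of mice with the same number correlated at 0.12, 0.02 and 0.01. With the replicate block 11 of 12 member probes were higher, and Prf1 had an adjusted p of 0.0542 from limma.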
